A study of Homo sapiens with 6 samples.

Results

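The genes described here encode the machinery that carries a cell from G1 into S phase. They are 10 genes, namely the D-type cyclins CCND1 and CCND3, their kinases CDK4 and CDK6, the E-type cyclins CCNE1 and CCNE2 with their kinase CDK2, and the CDK inhibitors CDKN1A, CDKN1B and CDKN2C. Each was taken by its name from a table of read counts that lists 33451 genes, and all 10 passed the low-count filter that left 18183 genes for testing. The cells were MDA-MB-453, an established human breast cancer line, cultured for 5 days with 100 nM 25(OH)D, the main circulating metabolite of vitamin D, or with its alcohol solvent as the control group. There were 3 mRNA libraries in each group, both groups came from this 1 cell line, and the labels name no engineered allele in either. The study asked how 25(OH)D acts on breast cancer cells, including their passage from G1 to S phase.

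In G1, cyclin D binds CDK4 or CDK6, and the complex phosphorylates the retinoblastoma protein, which otherwise holds E2F transcription factors inactive. Cyclin E with CDK2 continues this phosphorylation and helps to start DNA replication. The INK4 inhibitors, to which the CDKN2C product p18 belongs, bind CDK4 and CDK6, whereas the CIP/KIP proteins p21 (CDKN1A) and p27 (CDKN1B) bind cyclin and CDK complexes and block those of CDK2.

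The libraries held between 33268860 and 40928176 counts. Mitochondrial genes took 7.85 to 7.99% of each control library and 8.89 to 9.24% of each 25(OH)D library, and the part of this shift in the results below was not tested. Markers of a luminal breast line were present, with KRT8 at 1636 to 1869 CPM and EPCAM at 507 to 553 CPM over the 6 libraries, whereas ESR1 and PGR had at most 8 counts in any library. CPM denotes counts scaled to a common library size by the TMM method. Of 12 markers of other cell types, 11 were listed and 10 of these had at most 26 counts in any library, with the immune markers PTPRC and CD3E at 6 or fewer. The exception was the collagen gene COL1A1, at 35.9 to 38.5 CPM in control and 32.0 to 34.3 CPM in 25(OH)D.

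Promoter sequences of CDKN1A, CDK4 and CDKN1B are shown because these genes, among those with a promoter in the table used, had the most stable calls between the groups. The RefSeq windows (GRCh38.p14) run from 250 bases before to 50 bases after the start of the transcript and are written 5′ to 3′ on the strand of the gene. They lie at chr6:36678464-36678763 (plus strand) for CDKN1A, at chr12:57752261-57752560 (minus strand) for CDK4 and at chr12:12717118-12717417 (plus strand) for CDKN1B. Capitals mark GC boxes (GGGCGG or its reverse complement CCGCCC), the letters bound by SP1-type factors, and E-boxes (CACGTG), the letters bound by MYC and related factors.
CDKN1A: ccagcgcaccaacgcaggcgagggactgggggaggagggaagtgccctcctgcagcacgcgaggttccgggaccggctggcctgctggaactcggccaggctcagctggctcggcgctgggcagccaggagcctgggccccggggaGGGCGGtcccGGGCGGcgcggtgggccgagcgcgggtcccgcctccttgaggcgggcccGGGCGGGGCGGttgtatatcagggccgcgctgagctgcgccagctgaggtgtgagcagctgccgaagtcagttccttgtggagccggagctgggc
CDK4: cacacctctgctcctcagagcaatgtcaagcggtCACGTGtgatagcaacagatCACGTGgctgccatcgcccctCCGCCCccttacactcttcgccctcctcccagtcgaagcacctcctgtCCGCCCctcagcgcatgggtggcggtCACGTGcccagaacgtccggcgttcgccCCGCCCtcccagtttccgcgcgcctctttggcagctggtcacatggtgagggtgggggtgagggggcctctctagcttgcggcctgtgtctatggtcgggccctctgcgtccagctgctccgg
CDKN1B: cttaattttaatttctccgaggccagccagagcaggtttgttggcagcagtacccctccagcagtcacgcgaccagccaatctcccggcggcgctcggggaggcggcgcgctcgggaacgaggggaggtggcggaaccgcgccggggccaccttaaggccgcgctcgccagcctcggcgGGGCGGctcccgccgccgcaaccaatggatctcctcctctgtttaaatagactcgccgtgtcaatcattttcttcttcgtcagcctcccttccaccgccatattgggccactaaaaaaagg

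The CDKN1A window held 4 GC boxes, of which the pair nearest to the start overlap by 1 base, and no E-box. The CDK4 window held 3 GC boxes and 3 E-boxes, whose first bases lie 216, 196 and 101 bases before the start, and that of CDKN1B held 1 GC box. Of 35116 RefSeq windows of the same length, 45% held a GC box and 7.26% an E-box on either strand. Promoters of 7 of the 10 genes were matched, in 12 windows, since CCND3, CDK6 and CDKN2C have several starts. None of the 12 held the E2F sites searched (TTTGGCGC, TTTCCCGC or TTTCGCGC, in 2.74% of all windows), a cAMP response element (TGACGTCA, 1.85%), an AP-1 site (TGANTCA, 7.71%), a CHR element (TTTGAA, 15.2%), a TATA box written as TATAAA (11.5%) or the vitamin D response element of direct repeats (0.074%). These are matches of letters in short windows and were not tested as binding sites.

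After 25(OH)D, 2 of the 10 genes were higher, CDKN1A and CCND1, and 4 were lower, CDK4, CDK6, CDK2 and CDKN1B, at an adjusted p under 0.05 in edgeR's quasi-likelihood test. CCND3, CCNE1, CCNE2 and CDKN2C did not pass. Across all genes tested, 17.3% were called higher and 16.5% lower. The median log2 fold change was -0.14 over the 10 genes and -0.011 over all genes tested. CDKN1A was the only one of the 10 past the limits the study used, an absolute log2 fold change over 1 with an unadjusted p under 0.05, which 6.65% of all genes tested passed. The count of lower genes fell to 2 with DESeq2, without 25(OH)D replicate 1 and without any 1 of the control replicates, in each case by the loss of CDK6 and CDK2. In bulk RNA, fewer cells carrying a message and less of it per cell cannot be told apart. The study's methods name biological replicates for the mRNA sequencing. Neither they nor the labels say whether the replicates came from separate cultures, so the p-values measure the spread between these libraries.

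**Figure D1:**
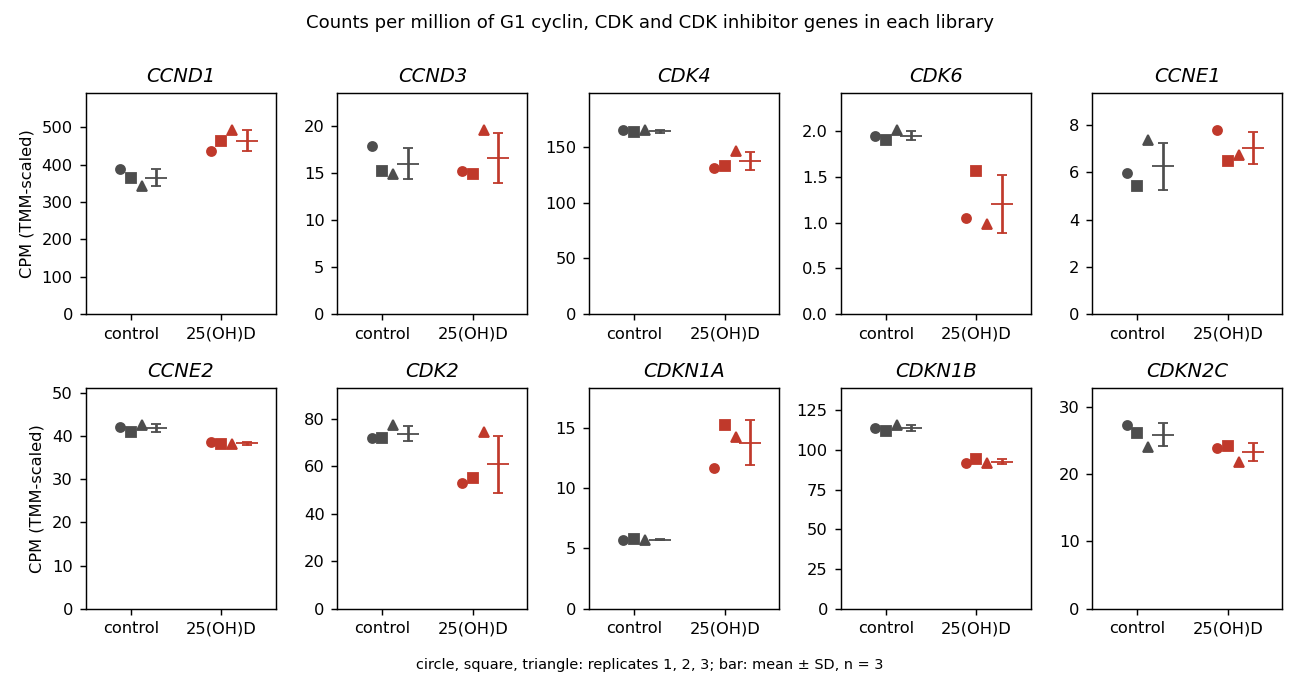
CPM (TMM-scaled, linear axes from 0) of the 10 genes in each of the 6 libraries, with control in grey, 25(OH)D in red, a symbol for each replicate and the mean ± SD (n = 3) beside them. CDKN1A rose from 5.69 to 5.79 CPM to 11.7 to 15.3 CPM, CDK4 and CDKN1B sat lower in every 25(OH)D library, and CDK2 replicate 3 of 25(OH)D reached the control range.

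Expressed per gene length, as RPKM (reads scaled to the exon length of the gene and to the total of the library), the genes spanned a wide range in the control libraries. CCND1 was the most abundant, with a mean of 76.8 RPKM, followed by CDK4 with 52.6, CDKN1B with 41.2 and CDK2 with 19.2 RPKM. CCNE2 (9.67), CDKN2C (7.92), CCND3 (2.80), CCNE1 (2.49) and CDKN1A (1.91) followed, and CDK6 was the least abundant with 0.162 RPKM. CCND3 and CCNE1 were the only neighbours in this order whose libraries overlapped, in both groups. With 25(OH)D the order was the same except for CDKN1A, which moved above CCND3 and CCNE1 from the ninth place to the seventh, with a mean of 4.44 RPKM.

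**Figure D2:**
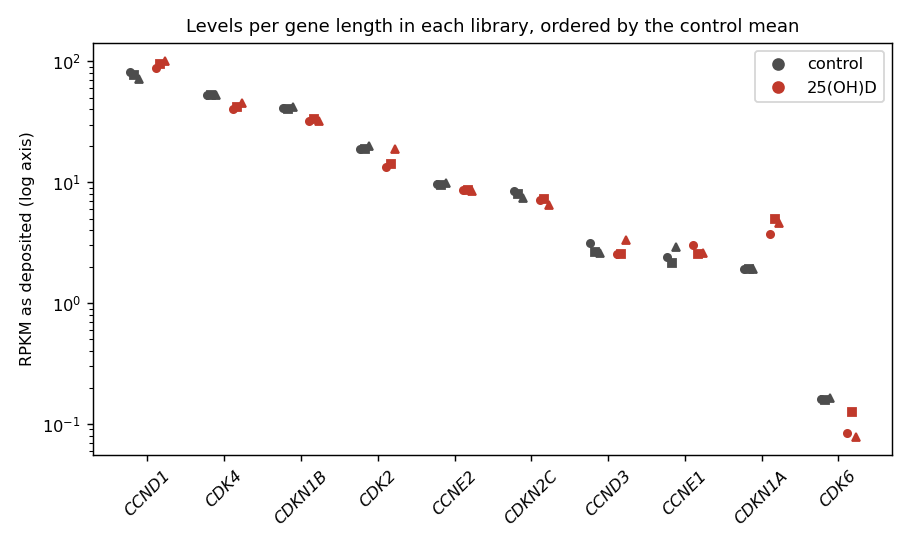
RPKM as deposited (log axis) of the 10 genes in each library, ordered by the control mean, with control in grey and 25(OH)D in red. CCND1 lay highest at 71.7 to 99.9 RPKM and CDK6 lowest at 0.0785 to 0.165 RPKM, and CDKN1A moved above CCND3 and CCNE1 in the 25(OH)D libraries.

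Among the D-type cyclins, CCND1 rose and CCND3 did not pass the test. CCND1 (chromosome 11, 69641087 to 69654474, plus strand of GRCh38) encodes cyclin D1, the D-type cyclin most often amplified in breast cancer. It had 389, 365 and 343 CPM in control replicates 1, 2 and 3, and 438, 463 and 493 CPM in the 25(OH)D replicates. Every 25(OH)D library lay above every control library. The log2 fold change was 0.35 (standard error 0.0506, 95% interval 0.24 to 0.46, adjusted p = 9.64e-05), a fold of 1.27. Of all genes tested, 22.8% likewise had every 25(OH)D library above every control library. CCND1 shares 497 exon bases, 10.3% of its own, with ORAOV1 on the opposite strand, whose counts were 6.5 to 9.62% of those of CCND1.

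CCND3 (chromosome 6, 41934933 to 42050357, minus strand), which encodes cyclin D3, had 17.9, 15.2 and 14.9 CPM in control and 15.2, 14.9 and 19.6 CPM in 25(OH)D. Both groups overlapped, each with 1 library above the others. The fitted log2 fold change of 0.044 had a 95% interval of -0.20 to 0.28 (adjusted p = 0.802), and it was -0.084 without 25(OH)D replicate 3. CCND2, the remaining D-type cyclin gene, had at most 4 counts in any library and was not tested. CCND1 therefore made up nearly all the D-type cyclin RNA per gene length, 96.3, 96.6 and 96.5% of the summed RPKM in control and 97.2, 97.4 and 96.8% in 25(OH)D. This share was higher in each 25(OH)D library, and the two-sided exact permutation test gave p = 0.1, the smallest it can give for 3 libraries against 3.

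Both kinase genes for the D-type cyclins were called lower, opposite in direction to CCND1. CDK4 (chromosome 12, 57747727 to 57756013, minus strand) had 165, 163 and 165 CPM in control and 131, 133 and 146 CPM in 25(OH)D. The control libraries were within 3 CPM of each other, and every 25(OH)D library was below them, with replicate 3 the closest. CDK4 thus fell with a log2 value of -0.26 (standard error 0.0461, 95% interval -0.36 to -0.16, adjusted p = 4.47e-04). Groups without overlap in this direction were seen in 22.9% of all genes tested. CDK4 shares 1369 exon bases, 43.2% of its own, with TSPAN31 on the opposite strand, whose counts were 10.7 to 14.3% of those of CDK4 and whose log2 fold change was -0.0518.

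CDK6 (chromosome 7, 92604921 to 92836594, minus strand) was the least abundant of the genes, with 81, 72 and 74 counts in control and 37, 60 and 32 counts in 25(OH)D. In CPM these were 1.95, 1.90 and 2.01 against 1.05, 1.56 and 0.982. The control libraries were close together, and 25(OH)D replicate 2 lay nearer to them than replicates 1 and 3 did. The fitted difference on the log2 scale was -0.69 (standard error 0.242, 95% interval -1.21 to -0.17, adjusted p = 0.0394). The call was lost with DESeq2 (adjusted p = 0.0524), with a replicate block (0.0523), with limma on log2 RPKM with 0.1 or 1 added (0.0776 and 0.106) and without any 1 library other than 25(OH)D replicate 2, with adjusted p-values of 0.0811 to 0.124 in edgeR. With 1 added, limma gave a log2 fold change of -0.084. The added 1 shrinks this size, since CDK6 lay at 0.0785 to 0.165 RPKM. Without 25(OH)D replicate 2 the log2 fold change was -0.93 (adjusted p = 0.0164) in edgeR. At such counts the precision is low, and a count may not stand for an independent fragment, since 68.5% of the 45339 values of 1 to 10 counts in the table were even. CDK6 made up 0.303, 0.301 and 0.314% of the summed RPKM of CDK4 and CDK6 in control and 0.207, 0.301 and 0.173% in 25(OH)D (two-sided exact permutation test, p = 0.2). CDK4 was thus more than 99% of this sum in every library.

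In the cyclin E and CDK2 arm, CDK2 was called lower and neither cyclin gene passed the test. CCNE1 (chromosome 19, 29811898 to 29824308, plus strand), which encodes cyclin E1, had 5.98, 5.42 and 7.36 CPM in control and 7.79, 6.5 and 6.75 CPM in 25(OH)D. The groups overlapped, and the log2 fold change of 0.17 had a 95% interval of -0.12 to 0.46 (adjusted p = 0.383). CCNE2 (chromosome 8, 94879770 to 94896678, minus strand), which encodes cyclin E2, had 42.1, 41.0 and 42.7 CPM in control and 38.6, 38.2 and 38.1 CPM in 25(OH)D. Every 25(OH)D library of CCNE2 was below every control library, by -0.13 on the log2 scale (standard error 0.0541, 95% interval -0.25 to -0.013) and an adjusted p of 0.0819. It passed with library sizes alone (adjusted p = 0.0229), with upper-quartile factors (0.0259) and with limma on log2 RPKM (0.0181 and 0.0184 with 0.1 and 1 added). CCNE2 shares 1629 exon bases, 37% of its own, with INTS8 on the opposite strand, which had 96.6 to 107% as many counts as CCNE2 and a log2 fold change of -0.212. Per gene length, CCNE1 was 19.7, 18.6 and 22.9% of the summed RPKM of both cyclins in control and 25.8, 22.7 and 23.4% in 25(OH)D (two-sided exact permutation test, p = 0.2).

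CDK2 (chromosome 12, 55966769 to 55972784, plus strand) had 72.0, 71.8 and 77.6 CPM in control and 52.8, 55.2 and 74.5 CPM in 25(OH)D. Replicates 1 and 2 of 25(OH)D were below every control library, whereas replicate 3 was within the control range. On the log2 scale the difference was -0.28 (standard error 0.0989, 95% interval -0.49 to -0.068, adjusted p = 0.0418). Without 25(OH)D replicate 3 it was -0.44 (adjusted p = 3.39e-05). Without either of the other 25(OH)D replicates it was -0.18 or -0.21 (adjusted p = 0.195 and 0.182), the omission of any 1 control library gave adjusted p-values of 0.055 to 0.114, DESeq2 gave 0.208, and limma on log2 RPKM with 0.1 or 1 added gave 0.0808 and 0.0832.

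The annotated gene RP11-973D8.4 (chromosome 12, 55966838 to 55967474, minus strand) lies with all of its 565 exon bases inside exons of CDK2, on the opposite strand. Its counts were 2695, 2479 and 2654 in control and 1704, 1907 and 2301 in 25(OH)D, which is 89.9 to 94.8% of the CDK2 count in the same library. The gene thus followed CDK2 library by library, with 25(OH)D replicate 3 the highest of its group in both, and its log2 fold change was -0.264. The library kit marks strand, but the strand setting of the counting is not given in the sources used here. Over the whole table, 281 genes of at least 300 exon bases lay wholly inside exons of another gene on the opposite strand, and 269 of them had 10 or more counts. Per exon base, the median of their counts was 0.57 of that of the gene around them, against 0.721 for the genes nested in this way on the same strand. RP11-973D8.4 was not typical of them, since its counts fell on 565 exon bases and those of CDK2 on 3894. Per exon base it thus lay above CDK2 in every library. Without the strand setting, reads of CDK2 and of its antisense partner cannot be told apart. The same holds for the shared bases of CDK4, CCNE2 and CCND1.

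The CIP/KIP inhibitor genes moved in opposite directions. CDKN1A (chromosome 6, 36676460 to 36687339, plus strand), whose product p21 is a classical p53 target and G1 brake, had 5.69, 5.79 and 5.73 CPM in control and 11.7, 15.3 and 14.3 CPM in 25(OH)D. The control libraries lay within 0.1 CPM of each other and every 25(OH)D library was well above them. The log2 fold change was 1.26 (standard error 0.113, 95% interval 1.02 to 1.51, adjusted p = 7.70e-07), a fold of 2.40 with an interval of 2.03 to 2.84. An absolute log2 fold change larger than that of CDKN1A was found for 4.58% of the genes tested. The counts behind these values were 237, 219 and 211 in control and 411, 589 and 466 in 25(OH)D.

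CDKN1B (chromosome 12, 12715058 to 12722371, plus strand), whose product is p27, had 114, 112 and 116 CPM in control and 92.0, 94.2 and 91.8 CPM in 25(OH)D. The 25(OH)D libraries were close to each other and all below the control libraries. The fall on the log2 scale was -0.30 (standard error 0.0419, 95% interval -0.39 to -0.21, adjusted p = 6.44e-05), a fold of 0.813. Per gene length CDKN1B remained the more abundant of the pair in every library. CDKN1A rose from 4.41, 4.54 and 4.35% of the summed RPKM of both genes in control to 10.5, 13.0 and 12.6% in 25(OH)D (two-sided exact permutation test, p = 0.1, the smallest possible).

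The INK4 gene CDKN2C (chromosome 1, 50960745 to 50974633, plus strand), which encodes p18, had 27.4, 26.2 and 24.1 CPM in control and 23.9, 24.2 and 21.8 CPM in 25(OH)D. The highest 25(OH)D library lay just above the lowest control library. The log2 fold change was -0.15 with a 95% interval of -0.31 to 0.005 (adjusted p = 0.13).

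**Figure D3:**
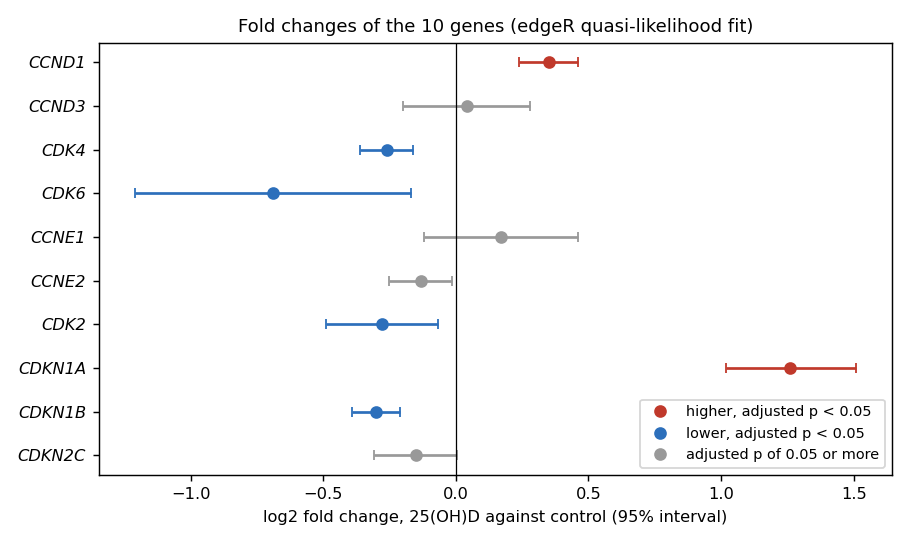
Log2 fold change of 25(OH)D against control (points) with its 95% interval (bars) for the 10 genes, from the fit over all genes, coloured by the call. CDKN1A at 1.26 and CCND1 at 0.35 were higher, CDK4, CDK6, CDK2 and CDKN1B were lower between -0.69 and -0.26, and the other 4 were not called.

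CDKN1A, CCND1, CDK4 and CDKN1B kept their calls in all 15 other settings, of which 6 left out 1 library each. With 1 library left out, the log2 fold change was between 1.18 and 1.37 for CDKN1A, between 0.31 and 0.40 for CCND1, between -0.30 and -0.23 for CDK4 and between -0.31 and -0.28 for CDKN1B. CDK6 lost its call in 9 of the 15 settings and CDK2 in 8.

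**Figure D4:**
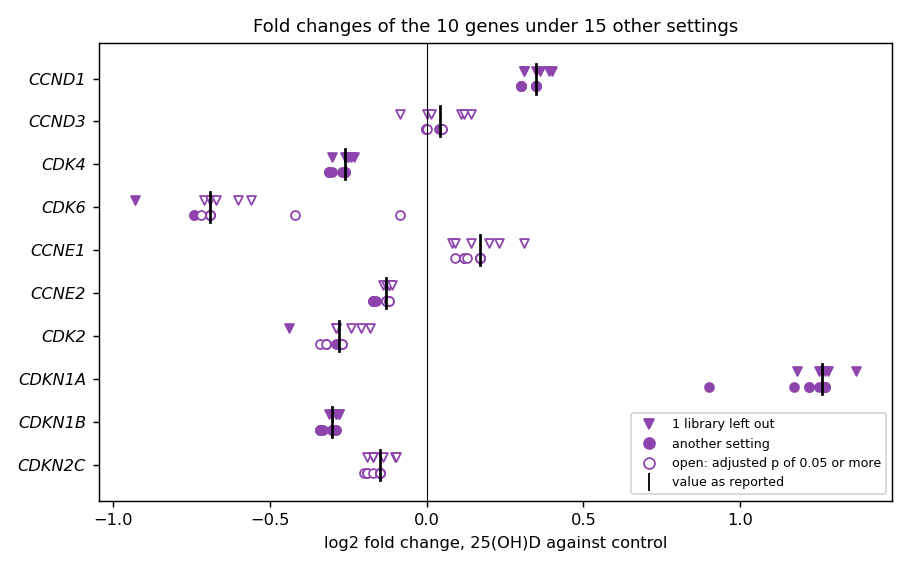
Log2 fold change of the 10 genes (25(OH)D against control) under 15 other settings, as triangles where 1 library was left out and circles for another test, normalisation, filter or block, filled where the adjusted p was under 0.05, with a black bar at the value reported. CDKN1A stayed at 0.90 or more, whereas CDK6 ranged from -0.93 to -0.084 and CDK2 from -0.44 to -0.18 with open symbols among them. The 0.90 of CDKN1A and the -0.084 of CDK6 came from limma on log2(RPKM + 1). The 1 added there shrinks the fold changes of genes at low RPKM.

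Of the 6 other D-type cyclin and CDK inhibitor genes, only 4 passed the filter, and the test called 1 of them higher and 1 lower (25% each, against 17.3% and 16.5% of all genes tested). CDKN2B, which encodes the INK4 protein p15, rose from 4.73, 3.57 and 4.43 CPM to 6.37, 6.68 and 7.27 CPM (log2 fold change 0.67, standard error 0.137, adjusted p = 0.00149). CDKN3, which encodes a phosphatase that acts on CDK2, fell from 23.3, 26.9 and 26.8 CPM to 20.7, 18.5 and 14.7 CPM (log2 fold change -0.51, standard error 0.107, adjusted p = 0.00185). CDKN2A, the gene of p16 and of ARF, had a log2 fold change of -0.18 (adjusted p = 0.25), and CDKN2D, the gene of p19, one of 0.0071 (adjusted p = 0.956). CDKN1C, the gene of p57, was at 0 counts in all libraries except 25(OH)D replicate 2, which had 6 counts. With counts taken as independent, a count of 0 allows up to 3 counts, worth 0.072 to 0.092 CPM in these libraries, for counting error only. If counts came in pairs, this bound would be higher, which was not tested.

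Of 10 genes that activate, restrain or chaperone CDKs, 5 were lower (50%, against 16.5% of all genes tested) and none was higher by edgeR (against 17.3%), and the list median was -0.22 on the log2 scale. Both CDC25 genes with the largest fall encode phosphatases that remove inhibitory phosphates from CDKs. CDC25C fell from 12.4 to 13.8 CPM to 7.18 to 8.26 CPM (log2 fold change -0.74, adjusted p = 3.63e-05), and CDC25B from 54.6 to 57.7 CPM to 32.5 to 36.0 CPM (-0.69, adjusted p = 5.17e-07). The groups did not overlap for CDC25C or CDC25B, as for 22.9% of all genes tested in this direction. The remaining CDC25 gene, CDC25A, was not called (log2 fold change -0.17, adjusted p = 0.0929).

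A list of 15 genes covered ubiquitin ligases for cyclins and inhibitors, together with cofactors of such ligases and an enzyme that removes ubiquitin. Of these 15, 4 were higher (26.7%, against 17.3% of all genes tested) and 5 lower (33.3%, against 16.5%). The lower genes included cofactor genes, and the median log2 fold change of the list was -0.041. FBXW7, whose product marks cyclin E for degradation, fell by 0.54 on the log2 scale (adjusted p = 4.01e-07). SKP2, whose product marks p27, fell with -0.50 (adjusted p = 0.00236). FBXO31 (0.46, adjusted p = 0.00263) and AMBRA1 (0.44, adjusted p = 4.02e-04), both adaptors of ligases for cyclin D1, rose. Without 25(OH)D replicate 2 only 2 of the list were higher, and without any 1 library other than control replicate 2 only 3 were lower.

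Of 19 genes of the RB family, the E2F factors and the DREAM complex, 7 were lower (36.8%, against 16.5% of all genes tested) and none was higher by edgeR (against 17.3%), with a median of -0.14. E2F2, an activating E2F gene, fell with a value of -0.64 (adjusted p = 1.31e-05), and E2F8, a repressing one, with -0.57 (adjusted p = 6.38e-04). The count of lower genes was 4 without 25(OH)D replicate 2. Among 20 genes of S phase entry, which E2F factors are known to activate, 14 were lower and none higher, with a median of -0.24. CCNA2, the gene of cyclin A2, the second partner of CDK2, fell from 44.5 to 50.4 CPM to 27.9 to 30.0 CPM (log2 fold change -0.73, adjusted p = 7.02e-07), and MCM10, which encodes a replication initiation factor, had -0.44 (adjusted p = 2.37e-05).

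Of 12 G2 and M phase genes, 11 were lower and none higher, and the median of the list was -0.47. CCNB2, the gene of a mitotic cyclin, fell from 88.8 to 94.9 CPM to 48.6 to 52.3 CPM (log2 fold change -0.87, adjusted p = 1.03e-08), and TOP2A, which encodes a topoisomerase of dividing cells, had -0.77 (adjusted p = 1.33e-08). Against the 16.5% of all genes tested that were called lower, the lower share was 70% in the S phase list and 91.7% in the G2 and M phase list, and 40% among the 10 G1 genes. In the 4 lists without a higher gene by edgeR, none had a higher gene at an unadjusted p under 0.05 either, nor did DESeq2 or limma call one.

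**Figure D5:**
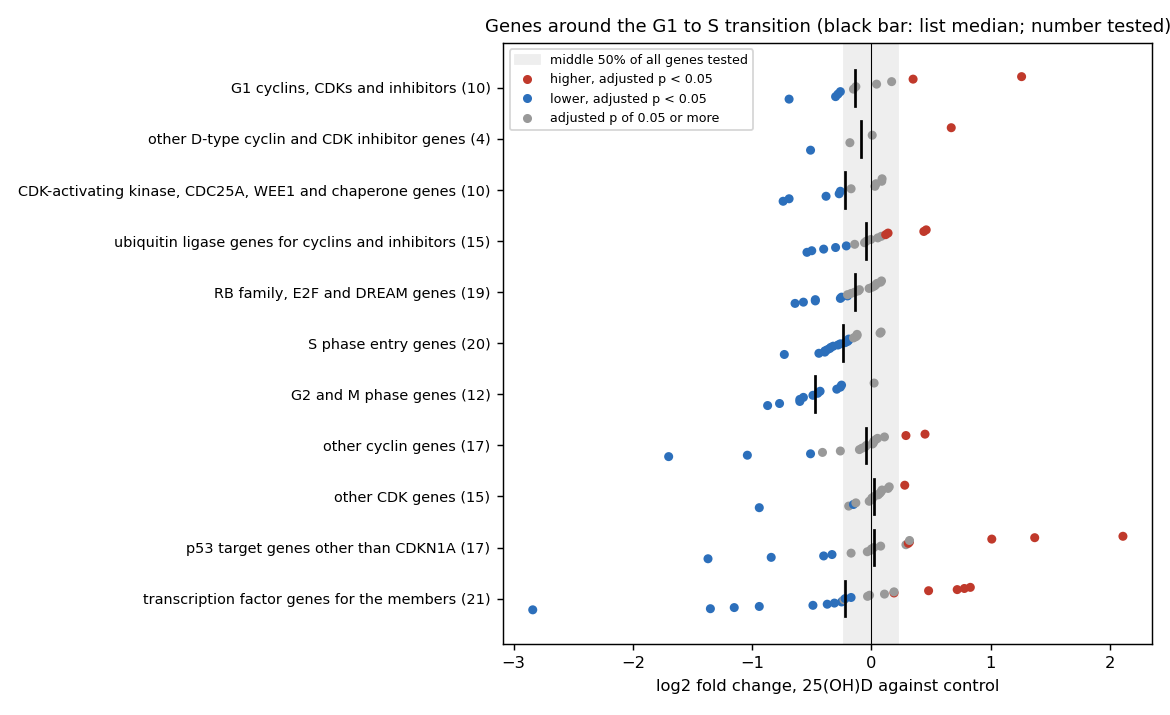
Log2 fold change (25(OH)D against control) of the genes of 11 lists (1 point a gene, coloured by the call), with the list median as a black bar, the number tested in parentheses and the middle 50% of all genes tested as the grey band. The points of the S phase list and of the G2 and M phase list lie mostly to the left of 0, with medians of -0.24 and -0.47, whereas those of the 10 G1 genes lie on both sides.

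Among 20 other cyclin genes, 19 were listed and 17 passed the filter. Of these, 2 were called higher (11.8%) and 3 lower (17.6%), with a median of -0.042, and neither share was far above the 17.3% and 16.5% of all genes tested. CCNG2, which encodes the growth-restraining cyclin G2, fell from 102 to 123 CPM to 32.4 to 38.7 CPM (log2 fold change -1.70, standard error 0.0764, adjusted p = 4.38e-10), a larger fold than any of the 10 G1 genes showed. CCNO had a log2 fold change of -1.04 (adjusted p = 6.22e-04). CCNC, the gene of the Mediator cyclin C, rose with 0.45 (adjusted p = 8.70e-06), and CCNQ, listed as FAM58A, with 0.29 (adjusted p = 0.00719).

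Among 16 other CDK genes, 15 passed the filter. Of these, 1 was higher (6.67%) and 2 lower (13.3%), both below the shares of all genes tested (17.3% and 16.5%), with a median of 0.023. CDK14 fell with a log2 fold change of -0.94 (adjusted p = 5.18e-05) and CDK12, a transcriptional CDK, with -0.15 (adjusted p = 0.0157), while CDK19, a Mediator kinase gene, rose with 0.28 (adjusted p = 0.00823). Without 25(OH)D replicate 1, 25(OH)D replicate 2 or control replicate 1, only 1 was lower.

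Of 17 p53 target genes tested other than CDKN1A, 5 were higher and 4 lower, with a median of 0.021. BTG2, an antiproliferative gene, rose from 40.3, 38.6 and 38.6 CPM to 168, 166 and 175 CPM (log2 fold change 2.11, standard error 0.0459, adjusted p = 1.93e-13). GADD45A, a stress-induced growth arrest gene, rose with 1.37 (adjusted p = 3.05e-10). In the other direction, BBC3, which encodes the apoptosis inducer PUMA, fell with -1.37 (adjusted p = 0.00199), and SESN2, a stress response gene, with -0.84 (adjusted p = 1.03e-05). The fall of BBC3 rests on low counts, 88, 94 and 59 in control and 36, 20 and 28 in 25(OH)D. The called shares of this list, 29.4% higher and 23.5% lower, stand beside 17.3% and 16.5% of all genes tested, and 2 of its genes were lower without 25(OH)D replicate 2.

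Of 21 genes of transcription factors known to act on the G1 genes, 5 were higher (23.8%, against 17.3% of all genes tested) and 11 lower (52.4%, against 16.5%), with a median of -0.22. MYC, whose product is known to activate cyclin and CDK genes and to repress CDKN1A, fell from 29.3, 27.5 and 29.4 CPM to 12.7, 11 and 10.1 CPM (log2 fold change -1.35, adjusted p = 2.30e-08). TP63 was called lower on 12, 26 and 19 counts in control and 3, 2 and 2 counts in 25(OH)D. HES1, a repressor gene downstream of Notch, rose with 0.83 (adjusted p = 1.85e-08). CEBPB had a log2 fold change of 0.78 (adjusted p = 0.0262) with overlapping groups, at 7.93 to 19.1 CPM in control and 17.3 to 32.2 CPM in 25(OH)D. The number of higher genes in this list was 3 without 25(OH)D replicate 3.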

How the data were processed

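RNA of 6 MDA-MB-453 samples, 3 with solvent and 3 with 25(OH)D, was sequenced as mRNA libraries of a stranded kit with paired reads. The authors deposited counts of reads per gene, whole numbers without normalisation, and RPKM values, in which each count had been scaled to the gene length and the library total (largest relative difference 2.23e-13). The submitters' processing notes name Trimmomatic 0.36, featureCounts of Subread 1.5.1, edgeR 3.12.1 and GRCh38; the aligner, the annotation release and the strand setting are not given in the sources used here. Groups and replicate numbers came from the sample labels.

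The counts were fitted in R 4.3.3 with edgeR 4.0.16 (TMM factors, the package's filter with a minimum count of 10, quasi-likelihood test, no covariate) over all 18183 genes that passed, with Benjamini-Hochberg adjustment. The procedure was also run on simulated counts that gave every gene the same variability, and the outcome is not reported here. Fold changes are on the log2 scale and CPM use TMM-scaled totals. The biological coefficient of variation was 0.0788. Shares of summed RPKM were compared by exact permutation tests. Shared exon bases were counted from the exon positions in the deposited table, and promoter windows were read from RefSeq. The 10 genes and the other lists, 179 further genes, were chosen with earlier results of these data known. In each further list, at most the 2 largest rises and the 2 largest falls with an adjusted p under 0.05 were named, and every gene of the list of other D-type cyclins and inhibitors. KRT8, EPCAM and the other markers not covered by that rule were named for the check of the cell type, and CDC25A to complete the CDC25 genes. Some genes covered by the rule are not reported here. The alternatives were DESeq2 1.42.0, limma 3.58.1 on log2(RPKM + 1) and log2(RPKM + 0.1), other scaling factors and filters, the replicate number as a block and the omission of each library. Figures were drawn with matplotlib 3.10.9, and other steps used pandas 2.3.3, scipy 1.17.1 and numpy 2.4.6 under Python 3.11.15.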

Additional observations from a re-analysis of the deposited data

How the results depend on the processing

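The calls of CDKN1A, CCND1, CDK4 and CDKN1B and the number of the 10 genes called higher held in all 15 alternatives. The number called lower was 4, against 2 with DESeq2, 2 to 3 with 1 library left out, 3 with the replicate block and 5 with library sizes alone or upper-quartile factors, which added CCNE2. It was 3 with either limma fit, in which CCNE2 was gained and CDK6 and CDK2 were lost. CCND3 changed sign, always without passing the test, with library sizes alone (-0.0012) and with limma on log2(RPKM + 0.1) (-0.0033) and log2(RPKM + 1) (-0.0015), and ranged from -0.084 to 0.14 with 1 library left out. The difference in the share of CDK6, -0.0789 percentage points per gene length, was -0.301 as a share of CPM, which leaves out the gene length. The cause of the other changes was not tested. Same-numbered deviations from the group means correlated at -0.0721, -0.012 and -0.046 over all genes tested, which gave no sign of pairing by replicate number. Such correlations cannot show whether the cultures were paired, and the labels do not say. In the fit with a replicate block, CDK6 had -0.72 with an adjusted p of 0.0523 in edgeR, and no other of the 10 genes changed its call. The adjusted p of CDK2 was 0.00724 with this block, against 0.0418 without it. In the further lists, with library sizes alone, upper-quartile factors or limma, 2 ubiquitin ligase genes were called higher in place of 4; with limma, 3 transcription factor genes were called higher in place of 5 and no other CDK gene in place of 1. With limma on log2(RPKM + 1), 7 transcription factor genes were lower in place of 11. The scaling alternatives moved the median of all genes from -0.011 to between -0.055 and -0.005. CDK6, CDKN1A and CCNE1 had fewer than 600 counts in every library, and how far depth limits their results was not tested.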
